A study of Mus musculus with 6 samples.

Results

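Apolipoproteins and lipid transport genes of the mouse cortex are described here: 9 genes of the 32285 listed in the deposited matrices, taken by symbol. They are the carriers Apoe and Clu, the exporters Abca1 and Abcg1, the receptors Lrp1, Vldlr and Scarb1, the lipase Lpl and the fatty acid carrier Fabp5. All 9 symbols were found in each of the 6 libraries. The libraries are single-nucleus RNA-seq of cortex from 7.5-month-old mice, sorted for nuclei without NeuN, a protein of neuronal nuclei. By the labels there are 3 groups of 2 libraries each, numbered replicates 2 and 3: 5xFAD mice carrying the M28L form of Plcg2, 5xFAD mice carrying its P522R form, and 5xFAD mice without either (called M28L, P522R and 5xFAD). Plcg2 encodes a phospholipase C of immune cells. All groups therefore share the 5xFAD transgenes, which give amyloid plaques, and no library without them was analysed here.

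The sources used here do not say whether the variant mice are homozygous, or whether replicates 2 and 3 come from different animals, so a p-value here speaks of the spread among libraries alone. Each library was loaded to hold 5000 nuclei from male and 5000 from female mice. Values of a group are given for replicate 2 and then replicate 3.

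Libraries held 9269 to 13783 barcodes and 53326947 to 72288942 UMIs (unique molecular identifiers, 1 per captured transcript), with a median of 3842 to 4972 UMIs per nucleus. After removal of low-quality nuclei and called doublets, 60085 nuclei were kept. The 10 cell types described here hold most of them, and the rest lie in unnamed clusters, a mixed sub-cluster and a small olfactory ensheathing-like cluster. Of the 10 or 12 markers listed for each glial and vessel type, 7 to 12 were highest in the type they name. In spite of the sort, 5153 neuron-like nuclei remained, and 7920 were microglia-like. Any 2 libraries shared 20 to 71 barcodes, at most 0.751% of the smaller library. The libraries stood apart by sex: of the nuclei that could be sexed among disease-associated-like microglia, 60% and 80.3% were female-like in M28L, 82.8% and 81.8% in P522R, and 2.42% and 70.9% in 5xFAD. The 5xFAD replicate 2 library thus had nearly no female-like nuclei of that state. Female-like nuclei were 46.3% of its sexed microglia as a whole and 63% of its homeostatic-like ones. They were 9.09% of its state without a name and 11.8% of its interferon-like state.

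Lipoproteins of the blood do not enter the brain, which makes its own cholesterol and moves it between cells on particles built around apolipoproteins. Astrocytes load Apoe particles through the exporters Abca1 and Abcg1, which liver X receptors switch on when sterols accumulate, and lipoprotein receptors take the particles up. Microglia around amyloid plaques take on a disease-associated state known for high Apoe and Lpl and for the storage of lipid.

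The genes lie on GRCm38, with gene bounds from the GENCODE vM21 annotation. Apoe is at chr7:19696109-19699188 on the minus strand, Clu at chr14:65968483-65981547 on the plus strand, and Abca1 at chr4:53030787-53159895 on the minus strand. Abcg1 is at chr17:31057675-31117988 on the plus strand, Lrp1 at chr10:127538161-127621148 on the minus strand, and Vldlr at chr19:27216484-27254231 on the plus strand. Scarb1 is at chr5:125277087-125341094 on the minus strand, Lpl at chr8:68880491-68907448 on the plus strand, and Fabp5 at chr3:10012548-10016607 on the plus strand. Counts were given per gene, so isoforms are not told apart.

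The promoters of Abca1, Lrp1 and Apoe are shown because these 3 members had changes between groups that differed between microglial states. Each window holds 250 bases before the annotated start and 50 from it, read on the gene's own strand from RefSeq on GRCm38.p6: chr4:53159846-53160145 for Abca1, chr10:127621099-127621398 for Lrp1 and chr7:19699139-19699438 for Apoe. Of the 9 members, 4 were found in that table, and Apoe had 3 windows, of which the first is shown. Capitals mark matches, on either strand, to GGGCGG (a GC box), CACGTG (an E-box), TATAAA, and a loose direct repeat, GGTNA followed after 5 bases by GGTNA again, modelled on the element that liver X receptors bind (N is any base).
Abca1: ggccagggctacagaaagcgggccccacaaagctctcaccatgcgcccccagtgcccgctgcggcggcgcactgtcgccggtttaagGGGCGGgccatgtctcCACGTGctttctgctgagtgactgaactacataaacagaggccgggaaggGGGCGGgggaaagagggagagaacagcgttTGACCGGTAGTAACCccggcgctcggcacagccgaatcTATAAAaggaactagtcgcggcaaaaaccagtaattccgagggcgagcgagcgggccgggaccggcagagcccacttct
Lrp1: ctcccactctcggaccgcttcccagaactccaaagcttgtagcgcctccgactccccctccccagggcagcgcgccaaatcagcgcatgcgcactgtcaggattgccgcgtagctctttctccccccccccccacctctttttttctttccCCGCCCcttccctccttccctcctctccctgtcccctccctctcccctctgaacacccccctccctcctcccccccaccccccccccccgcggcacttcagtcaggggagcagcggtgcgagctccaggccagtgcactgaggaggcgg
Apoe: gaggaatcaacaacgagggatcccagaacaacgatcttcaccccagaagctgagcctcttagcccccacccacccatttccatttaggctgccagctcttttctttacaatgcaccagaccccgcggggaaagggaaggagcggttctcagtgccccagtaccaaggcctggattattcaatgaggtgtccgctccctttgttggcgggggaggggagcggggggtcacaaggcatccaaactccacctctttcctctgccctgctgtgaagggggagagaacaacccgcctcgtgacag
The Abca1 window held 2 GC boxes, 1 E-box, 1 TATAAA and, from base 184 to base 198, 1 loose direct repeat. Lrp1 held 1 GC box, on the opposite strand, and the Apoe window held none of the 4. The strict repeat, AGGTCA followed after 4 bases by AGGTCA, was in none of the 3 windows and in 0.0152% of 32851 mouse promoter windows of this length. The loose repeat was in 0.718% of those windows, against 7.15% for CACGTG, 13.6% for TATAAA and 35.7% for GGGCGG. GC content was 62.7% for Abca1, 67.7% for Lrp1 and 57.7% for Apoe. These are matches of letters and say nothing of binding.

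By cell type, the carriers were highest in astrocytes, the exporters in macrophages and oligodendrocytes, and the receptors in 3 different types. Levels are CPM (the UMIs of a gene in a type, scaled to a common total per library), as mean ± SD over 6 libraries. They are not scaled to transcript length, so levels are compared within a gene only. The 9 members were left out of the genes used for clustering, and the order of types is a description with no test.

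Apoe, the main lipoprotein carrier of the brain, had 721 ± 125 CPM in astrocyte-like nuclei and 640 ± 198 CPM in border macrophage-like nuclei (SD, n = 6 libraries). These first 2 types overlapped, with astrocytes higher in 4 of 6 libraries. Endothelial-like nuclei had 394 ± 141 CPM of Apoe, fibroblast-like nuclei 314 ± 94.7 CPM and microglia-like nuclei 136 ± 27.8 CPM, against 27.3 ± 7.19 CPM in neuron-like nuclei. An Apoe UMI was found in 93.2% of astrocyte-like nuclei, and in 46.1% after each nucleus was thinned to 1000 UMIs. Neurons, which express little of it, gave 29.4% and 3.72% after thinning, at a median of 7855.5 to 13736 UMIs per library against 5591 to 7983 UMIs in astrocytes. Microglia gave 34.3%, and 12.7% after thinning, so the level in microglia lay between those of astrocytes and neurons.

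Clu, the secreted chaperone clusterin, was the member most restricted to astrocytes. It had 309 ± 68.5 CPM there and 58.8 ± 30.2 CPM in endothelial-like nuclei, and no library of the second type reached the lowest astrocyte value. Microglia had 17.7 ± 7.2 CPM and oligodendrocytes 17.1 ± 6.82 CPM of Clu. A Clu UMI was found in 5.89% of microglia and 6.48% of oligodendrocytes, against 76.4% of astrocytes. Of all Clu UMIs in the kept nuclei, 56.2% came from astrocytes, against 31.7% of all Apoe UMIs. Oligodendrocytes, with 26591 nuclei and a mean Apoe level of 150 ± 20.3 CPM, held 26.2% of Apoe UMIs.

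Abca1, which moves cholesterol onto lipid-poor apolipoproteins, had 579 ± 86.4 CPM in border macrophages and 498 ± 96.1 CPM in microglia. Border macrophages were higher than microglia in 6 of 6 libraries, although the ranges over libraries overlapped. Astrocytes had 341 ± 35.2 CPM of Abca1, oligodendrocytes 161 ± 24.4 CPM and neurons 31 CPM. Abcg1, which hands cholesterol to particles that already carry lipid, had another order. It was highest in oligodendrocytes at 120 ± 6.81 CPM, without overlap with microglia at 88.3 ± 9.19 CPM, and lowest in astrocytes at 6.16 ± 2.06 CPM. The exporters thus differed most in astrocytes, the third type of Abca1 and the last of Abcg1.

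Lrp1, a large endocytic receptor for Apoe particles and for amyloid, had 399 ± 62.9 CPM in microglia and 329 ± 31.3 CPM in oligodendrocyte precursors. Microglia were higher in 5 of 6 libraries. Astrocytes had 220 ± 34.3 CPM, and oligodendrocytes had the lowest level, 8.51 ± 0.896 CPM, with a UMI in 3.32% of nuclei. Vldlr, a receptor for Apoe particles and for reelin, had its highest level in oligodendrocytes, where Lrp1 was lowest. They had 147 ± 14.9 CPM and committed precursors 137 ± 20.8 CPM of Vldlr, with oligodendrocytes higher in 4 of 6 libraries, and microglia had the lowest level, 7.42 ± 0.651 CPM. Scarb1, the high-density lipoprotein receptor, had 154 ± 18.5 CPM in endothelial-like nuclei, above every library of the next type, pericytes and smooth muscle, which had 83.8 CPM. Microglia followed with 75.9 ± 25.5 CPM.

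Lpl, the lipase that frees fatty acids from lipoproteins, had 60.7 ± 37.8 CPM in microglia, and every other type had 5.11 CPM or less. Its UMIs were found in 11.8% of microglia, against 0.596% of astrocytes and 0.424% of oligodendrocytes. The 368 committed precursors held 0 Lpl UMIs, which allows up to 0.815% of nuclei or 0.803 CPM by counting error alone. Microglia held 66.6% of all Lpl UMIs. Fabp5, a cytosolic fatty acid carrier, was low in every type: 23.3 ± 5.99 CPM in astrocytes, 16.8 ± 3.82 CPM in oligodendrocytes and 13 ± 5.76 CPM in microglia. Oligodendrocytes overlapped both other types, and astrocytes lay above microglia without overlap.

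**Figure D1:**
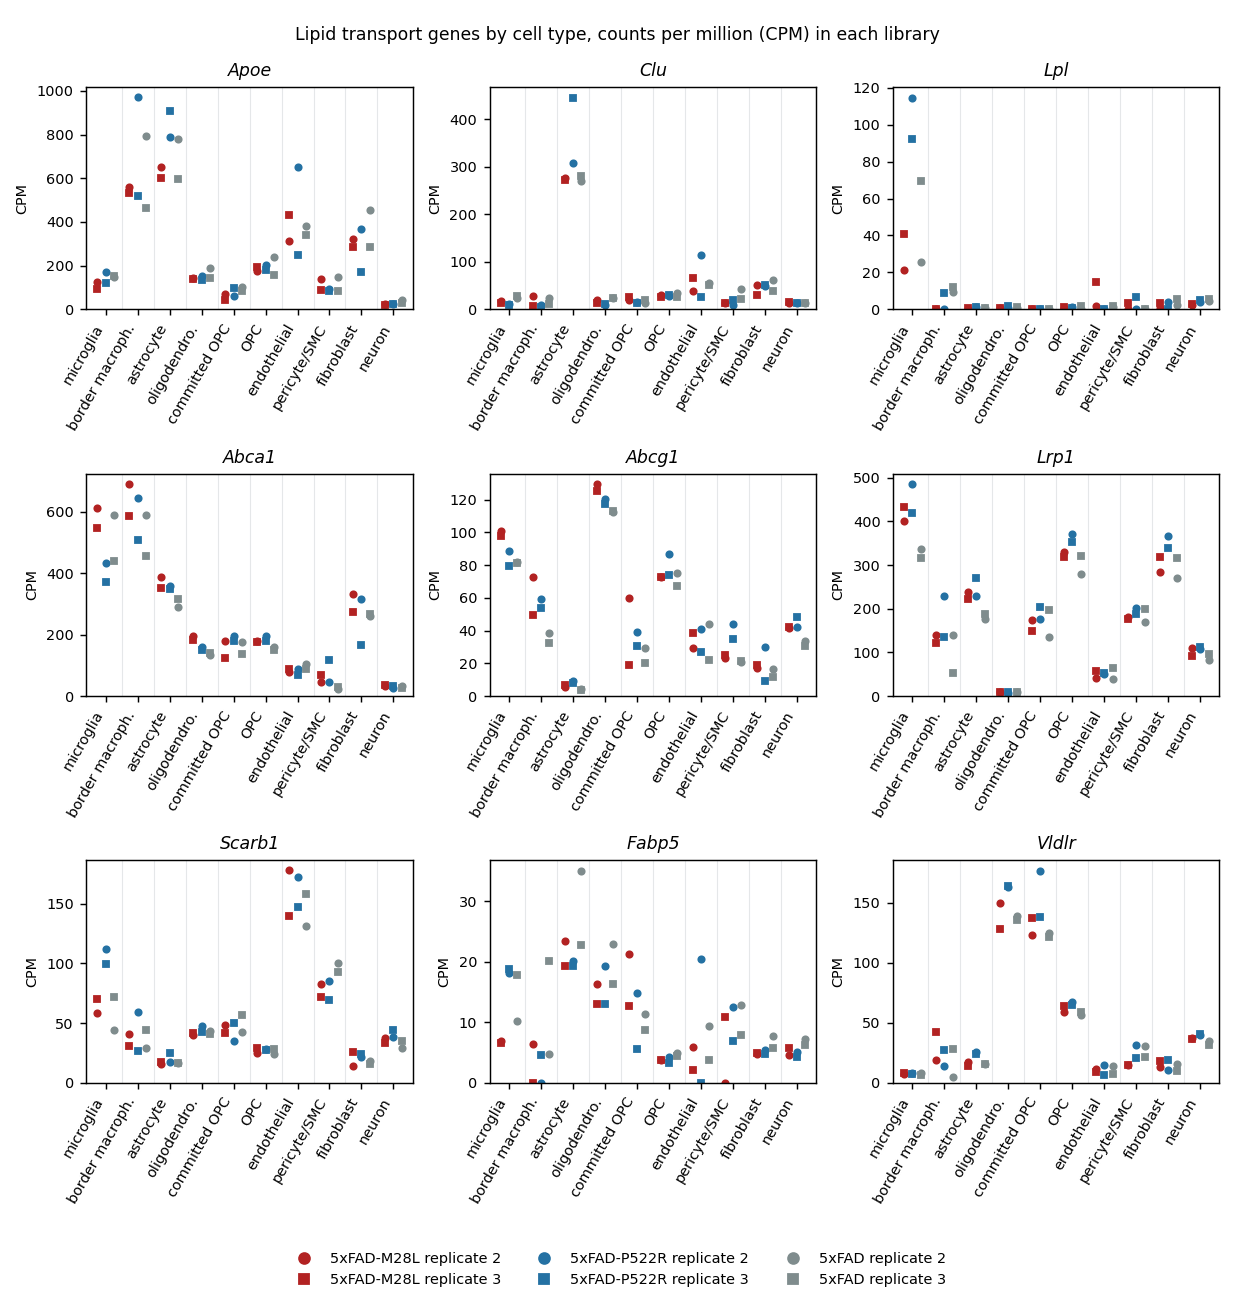
Level of each lipid transport gene by cell type, in CPM on the vertical axis, with 1 point per library, coloured by group and shaped by replicate. Clu stands alone in astrocytes (309 CPM) and Lpl in microglia (60.7 CPM), and Scarb1 is highest in endothelial-like nuclei (154 CPM). Lrp1 and Vldlr are at opposite ends in oligodendrocytes (8.51 and 147 CPM).

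Over the 10 cell types, the genes whose mean levels were most like each member's were found by Pearson's r of log2(CPM + 1) among 11358 genes, with 3 named per member. For Clu they were Nat8f6 (r = 0.985), Prdx6 (0.959) and Gm26671 (0.955). For Lpl they were Gm37168 (r = 0.98), Baiap2l2 (0.968) and Itgb3 (0.959), and for Vldlr Gm35438 (0.975), Lrrn1 (0.97) and Gm11659 (0.962). Abca1 was nearest to Dera (r = 0.971), 4833420G17Rik (0.948) and Tbl1xr1 (0.942), and Abcg1 to Ctnna3 (0.925), March1 (0.866) and Stx6 (0.849). Scarb1 was nearest to Abca7, a lipid exporter (r = 0.929), Ints11 (0.898) and Fkbp8 (0.891). Apoe was nearest to Aldh9a1 (r = 0.896), Pdlim5 (0.893) and Taf13 (0.887), Lrp1 to Slc18b1 (0.894), Cracr2a (0.894) and Prdm11 (0.89), and Fabp5 to Emc8 (0.865), Trp53bp2 (0.851) and Rbbp5 (0.85). The 10 points share libraries and depth, and a high r is easily reached by a gene of 1 cell type.

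Among microglia, 5 members were higher in the disease-associated-like than in the homeostatic-like nuclei of all 6 libraries: Lpl, Fabp5, Scarb1, Apoe and Abcg1. States were rebuilt by clustering microglia-like nuclei and named from markers that exclude the members, so these values are also a description. The share of all genes higher in all 6 libraries is not given here, so the count of 5 is not read as particular to the members. Lpl had 127 ± 41.7 CPM in disease-associated-like and 1.59 ± 0.997 CPM in homeostatic-like nuclei, a ratio of means of 79.6. Fabp5 had 28.8 ± 9.69 CPM in the disease-associated-like state, against 4.23 ± 2.32 CPM in the homeostatic-like one. Scarb1 had 117 ± 33.5 CPM in disease-associated-like and 41.6 ± 10.3 CPM in homeostatic-like nuclei. Apoe had 189 ± 40.9 CPM in disease-associated-like and 80.9 ± 31.3 CPM in homeostatic-like nuclei. For these 4 members no library of one state overlapped the other state. After thinning, Lpl was found in 10.4% of disease-associated-like and 0.167% of homeostatic-like nuclei, and Apoe in 17.3% of disease-associated-like and 8.22% of homeostatic-like nuclei.

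Abca1 went the other way, with 367 ± 118 CPM in disease-associated-like and 616 ± 38.4 CPM in homeostatic-like nuclei. It was lower in 6 of 6 libraries, although the ranges overlapped by 1 library of each state, M28L replicate 2 at 559.6 CPM in the disease-associated-like and P522R replicate 3 at 543 CPM in the homeostatic-like state. Abcg1 had 105 ± 20.1 CPM in disease-associated-like and 73.6 ± 11.6 CPM in homeostatic-like nuclei, so the exporters parted between these states. Lrp1 had 469 ± 89.3 CPM in disease-associated-like and 382 ± 80 CPM in homeostatic-like nuclei and was higher in the disease-associated-like ones in 5 of 6 libraries. Clu had 15.3 CPM in disease-associated-like and 18.9 CPM in homeostatic-like nuclei, and was higher in the disease-associated-like ones in 1 library. Vldlr had 6.01 CPM in disease-associated-like and 7.77 CPM in homeostatic-like nuclei, and was higher in the disease-associated-like ones in 2 libraries. A state without a name had 62.5 CPM of Lpl and 143 CPM of Apoe, between the others, and interferon-like nuclei had 30.9 CPM of Lpl, 147 CPM of Apoe and 638 CPM of Abca1.

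**Figure D2:**
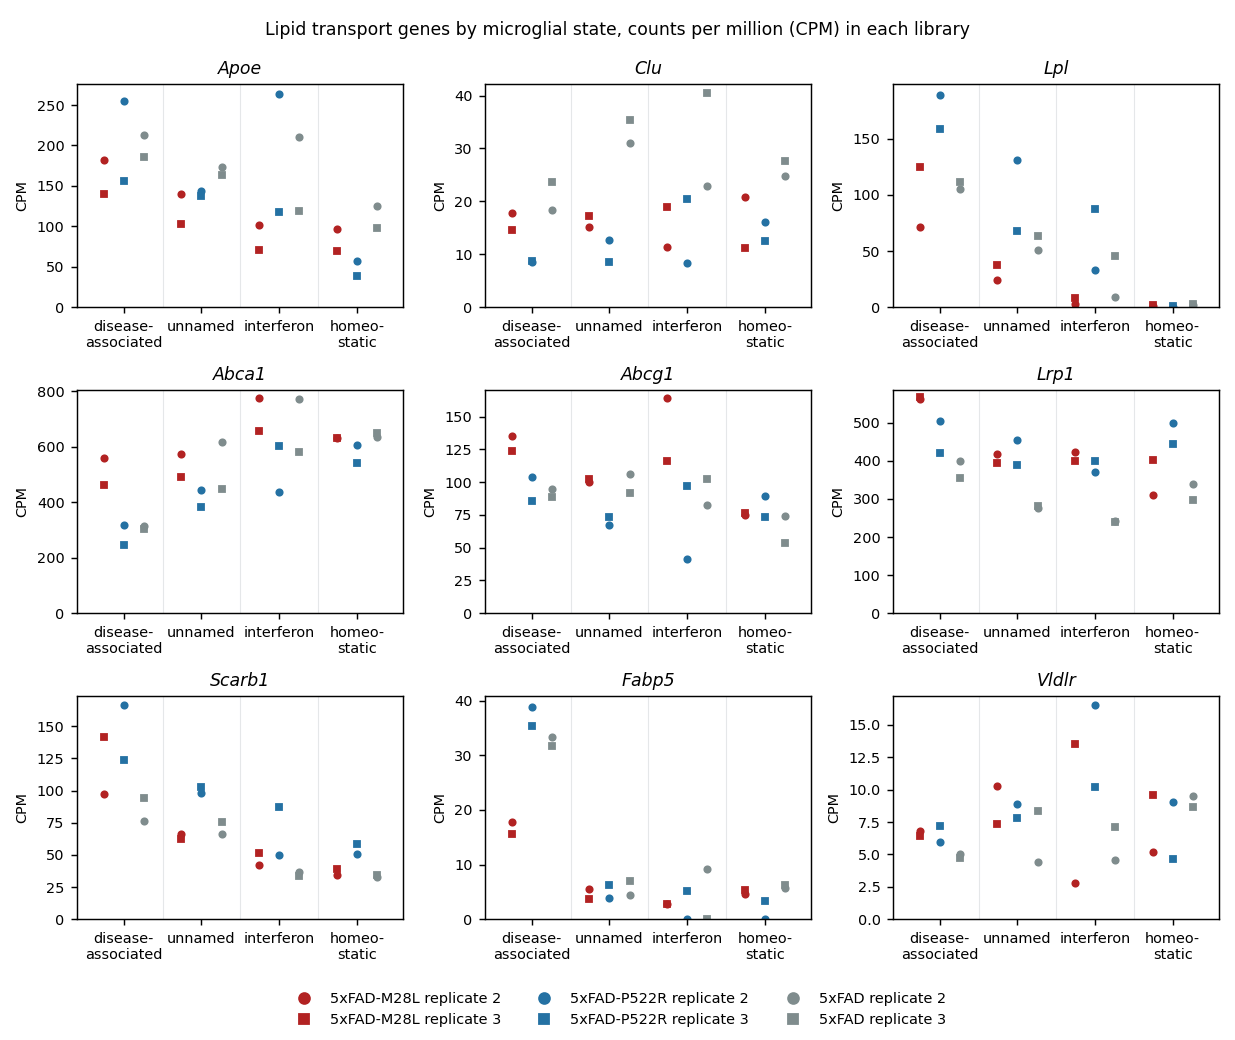
Level of each lipid transport gene in the disease-associated-like, unnamed, interferon-like and homeostatic-like microglial states, in CPM on the vertical axis, with 1 point per library coloured by group. Lpl, Fabp5, Scarb1 and Apoe separate the disease-associated-like from the homeostatic-like state in every library, and Abca1 is lower in the disease-associated-like state.

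Groups were compared with edgeR's quasi-likelihood test on UMIs summed per library, with p-values adjusted by Benjamini-Hochberg over all genes of a contrast and a threshold of 0.05. Values are CPM normalised by TMM. Because each group enters a pair of contrasts, the 3 contrasts are not independent. Where groups are said not to overlap, the share of all genes without overlap is not given here. With 2 libraries per group, such a gap is a description and not a test. In microglia-like nuclei as a whole, 0 of 9 members passed in M28L against 5xFAD, where 0.00733% of all genes passed, 0 of 9 in P522R against 5xFAD (0.022%) and 0 of 9 in P522R against M28L (0.00733%). At an unadjusted p under 0.05 there were 5, 5 and 6 members in those contrasts, against 6.36%, 9.44% and 8.4% of all genes. DESeq2 called 0, 1 and 0 members. The share of all genes that DESeq2 called is not given here, for this or later fits. Its calls are therefore not read as results about the members.

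Lpl in microglia had 21.6 and 41.8 normalised CPM in M28L, 112.7 and 92.1 in P522R, and 25.6 and 69.4 in 5xFAD. P522R lay above both other groups, and 5xFAD was spread over most of the distance. The log2 fold change of P522R was 1.67 against M28L (SE 0.405, edgeR adjusted p = 0.302) and 1.05 against 5xFAD (SE 0.387, adjusted p = 0.506). The second value was 0.55 when 5xFAD replicate 2 was left out and 2.0 when replicate 3 of that group was, and the first ranged over 1.29 to 2.24 with each library left out. The share of microglia in the disease-associated-like state, where Lpl is high, was 14.4% and 16.8% in M28L, 42.1% and 41.5% in P522R, and 14.5% and 41.0% in 5xFAD. That share moved with Lpl, and its part in the difference was not tested.

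Fabp5 and Scarb1 are also high in that state. Fabp5 followed a like order, and Scarb1 was likewise highest in P522R but not lowest in M28L. Fabp5 had 7.0 and 6.8 normalised CPM in M28L, 17.7 and 18.7 in P522R, and 10.3 and 17.7 in 5xFAD, with M28L below both other groups. Its log2 fold change was 1.41 in P522R against M28L (SE 0.279, adjusted p = 0.201) and -1.07 in M28L against 5xFAD (SE 0.281, adjusted p = 0.782). Scarb1 had 58.8 and 72.2 normalised CPM in M28L, 110.4 and 99.1 in P522R, and 44.0 and 71.3 in 5xFAD, with P522R above all other libraries. With each library left out in turn, the log2 fold change in P522R against M28L ranged over 1.36 to 1.44 for Fabp5 and 0.53 to 0.83 for Scarb1. The count of called members in whole microglia depended on which 5xFAD libraries were in the fit. The share of all genes that passed in those refits is not given here, so their counts are not read as a result about the members.

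Abca1 in whole microglia had 617 and 560.9 normalised CPM in M28L, 427.1 and 372.4 in P522R, and 588.5 and 439.0 in 5xFAD. P522R was the lowest group and did not overlap either other one, and the log2 fold change against M28L was -0.56 (SE 0.139, adjusted p = 0.318). Lrp1 had 406.1 and 445.8 normalised CPM in M28L, 477.4 and 418.4 in P522R, and 336.5 and 316.1 in 5xFAD, so both variant groups lay above 5xFAD. Its log2 fold change was 0.39 in M28L (SE 0.0983, adjusted p = 0.782) and 0.46 in P522R (SE 0.0985, adjusted p = 0.473). Abcg1 had 101.9 and 100.8 normalised CPM in M28L, 87.2 and 79.5 in P522R, and 81.8 and 81.1 in 5xFAD, with M28L the highest group. Apoe had 128.9 and 98.1 normalised CPM in M28L, 169.4 and 118.7 in P522R, and 150.3 and 153.9 in 5xFAD, and Vldlr ranged over 6.6 to 8.5 in all libraries. The groups overlapped in Vldlr, and P522R overlapped both other groups in Apoe.

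Clu in microglia had 17.6 and 14.9 normalised CPM in M28L, 11.4 and 10.1 in P522R, and 24.3 and 28.2 in 5xFAD. The 3 groups did not overlap, and the log2 fold change of P522R against 5xFAD was -1.30 (SE 0.194, adjusted p = 0.172), which DESeq2 called. The summed level of 10 abundant astrocyte transcripts in the same nuclei was 1650 and 1740 CPM in M28L, 1170 and 1240 CPM in P522R, and 1570 and 1610 CPM in 5xFAD. The astrocyte transporter Slc1a2 had 104 and 91 CPM in M28L, 46.6 and 49.5 CPM in P522R, and 102 and 93.5 CPM in 5xFAD. Astrocyte transcripts in microglia were thus lowest in P522R, as Clu was. Between M28L and 5xFAD the order differed, with the summed level higher and Clu lower in M28L. The 10 transcripts also summed to 26000 to 27800 CPM in oligodendrocyte precursors, so they are not particular to astrocytes. Their part in the level of Clu was not tested. The libraries held 703 and 547 astrocyte-like nuclei in M28L, 342 and 165 in P522R, and 1386 and 786 in 5xFAD.

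**Figure D3:**
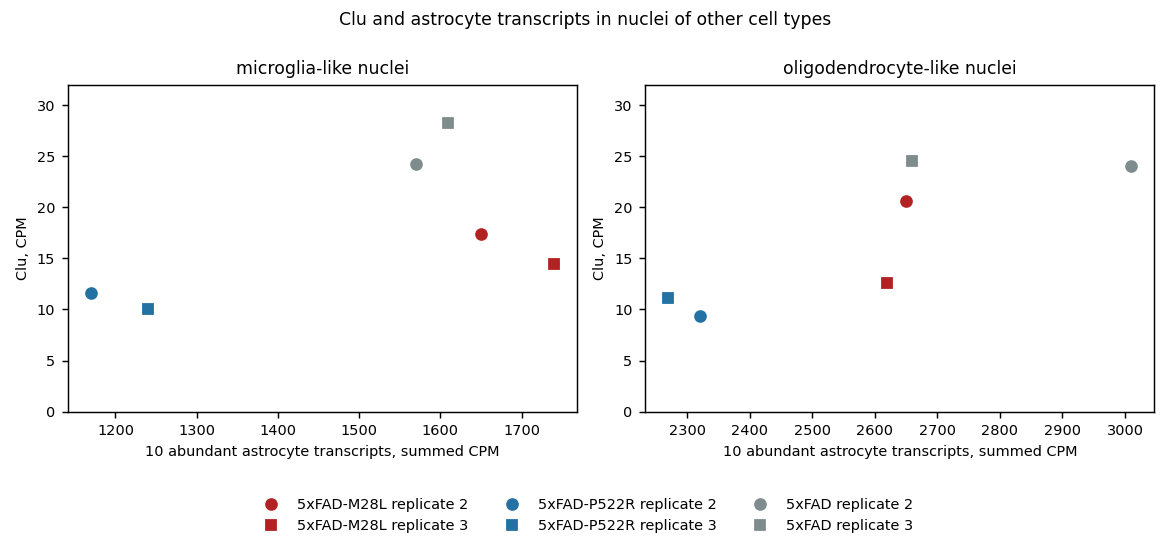
Clu (vertical axis, CPM) against the summed level of 10 abundant astrocyte transcripts (horizontal axis, CPM) in microglia-like and oligodendrocyte-like nuclei, with 1 point per library coloured by group. The P522R libraries are lowest on both axes in microglia, at 10.1 and 11.4 CPM of Clu.

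Within the disease-associated-like state 8 members could be tested, since Vldlr was too low, and differences between groups passed for Abca1 and Lrp1. In M28L against 5xFAD, 2 of 8 members passed, both higher, where 0.741% of all genes passed. In P522R against M28L, 1 of 8 passed, lower (0.933% of all genes), and in P522R against 5xFAD 0 of 8 passed (0.0481% of all genes), nor did any by DESeq2. At an unadjusted p under 0.05 there were 4 members in that contrast, against 6.51% of all genes. The state held 164 and 239 nuclei in M28L, 370 and 602 in P522R, and 189 and 707 in 5xFAD.

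Abca1 in disease-associated-like microglia had 566.4 and 476.3 normalised CPM in M28L, 316.2 and 246.9 in P522R, and 324.8 and 308.0 in 5xFAD. M28L lay above all other libraries, and P522R and 5xFAD overlapped. Abca1 rose by 0.72 on the log2 scale in M28L against 5xFAD (SE 0.127, adjusted p = 0.00652) and fell by 0.89 in P522R against M28L (SE 0.124, adjusted p = 0.000375). Leaving out 5xFAD replicate 3 ended the first call (adjusted p = 0.21), and the second was kept with each library left out. In homeostatic-like microglia Abca1 had 643.4 and 645.8 normalised CPM in M28L, 602.2 and 546.8 in P522R, and 640.5 and 655.7 in 5xFAD. All libraries thus lay between 546.8 and 655.7 in that state, a narrower range than in the disease-associated-like one.

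Markers of the states moved with Abca1. In disease-associated-like nuclei the 13 homeostatic markers, with which Abca1 is high, summed to 6810 and 7150 CPM in M28L, 5230 and 5730 CPM in P522R, and 5960 and 5960 CPM in 5xFAD. The 19 disease-associated markers summed to 10100 and 10100 CPM in M28L, 14200 and 13800 CPM in P522R, and 14800 and 12900 CPM in 5xFAD. M28L nuclei given this name thus had more of the homeostatic and less of the disease-associated markers, and the part of this in the Abca1 difference was not tested.

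Lrp1 in disease-associated-like microglia had 570.6 and 586.0 normalised CPM in M28L, 501.4 and 423.8 in P522R, and 411.9 and 360.5 in 5xFAD. The groups did not overlap. Lrp1 rose by 0.60 on the log2 scale in M28L against 5xFAD (SE 0.115, adjusted p = 0.0137), a call that was lost without M28L replicate 3 and without 5xFAD replicate 3 (highest adjusted p = 0.296). The state without a name gave the same direction, with 427 and 406.6 normalised CPM in M28L, 453.6 and 392 in P522R, and 281.8 and 281.9 in 5xFAD. There 1 of 8 members tested, Lrp1, passed in M28L against 5xFAD (0.113% of all genes), and its log2 fold change was 0.56 (SE 0.111, adjusted p = 0.0388). That call was lost in 4 of 6 fits that left out a library, each of them of M28L or 5xFAD. It was also lost in 5 of 9 other settings (DESeq2, the 4 libraries alone, doublets kept, male-like nuclei alone and higher resolution), and the log2 fold change in male-like nuclei was 0.07 (adjusted p = 0.999). In P522R against 5xFAD 0 of 8 passed (0.047% of all genes), and the log2 fold change of Lrp1 was 0.58 (SE 0.114, adjusted p = 0.0695).

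Lpl in disease-associated-like microglia had 72 and 128.5 normalised CPM in M28L, 187.9 and 160.4 in P522R, and 107.7 and 113.1 in 5xFAD. P522R lay above both other groups, at a log2 fold change of 0.74 against M28L (SE 0.183, adjusted p = 0.0589) that missed the threshold. In the state without a name Lpl had 24.8 and 38.7 normalised CPM in M28L, 130.9 and 68.3 in P522R, and 51.9 and 63.9 in 5xFAD. It rose there by 1.58 on the log2 scale in P522R against M28L (SE 0.264, adjusted p = 0.00515), the 1 of 8 members that passed (0.197% of all genes). Leaving out P522R replicate 2 ended the call (adjusted p = 0.155). In that state disease-associated markers summed to 5800 and 5870 CPM in M28L, 7180 and 7030 CPM in P522R, and 6900 and 6670 CPM in 5xFAD, and their part in the Lpl difference was not tested.

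Fabp5 in disease-associated-like microglia had 18 and 16.1 normalised CPM in M28L, 38.6 and 35.8 in P522R, and 34.2 and 32.2 in 5xFAD. M28L was below both other groups without overlap, at a log2 fold change of 1.13 in P522R against M28L (SE 0.281, adjusted p = 0.06). Disease-associated markers in these nuclei were also lowest in M28L. Their part in the Fabp5 and Lpl differences of this state was not tested. Scarb1 had 98.3 and 145.5 normalised CPM in M28L, 165.6 and 124.6 in P522R, and 78.6 and 95.5 in 5xFAD, and Abcg1 had 137.1 and 127.6 in M28L, 103.4 and 86.9 in P522R, and 97.4 and 89.8 in 5xFAD. Scarb1 was lowest in 5xFAD and Abcg1 highest in M28L, and neither passed in any contrast of this state. Clu had 18 and 15.1 normalised CPM in M28L, 8.5 and 8.8 in P522R, and 18.8 and 23.9 in 5xFAD, with the astrocyte transcripts again lowest in P522R, at 1130 and 1130 CPM against 1540 and 1570 CPM in M28L and 1430 and 1420 CPM in 5xFAD.

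**Figure D4:**
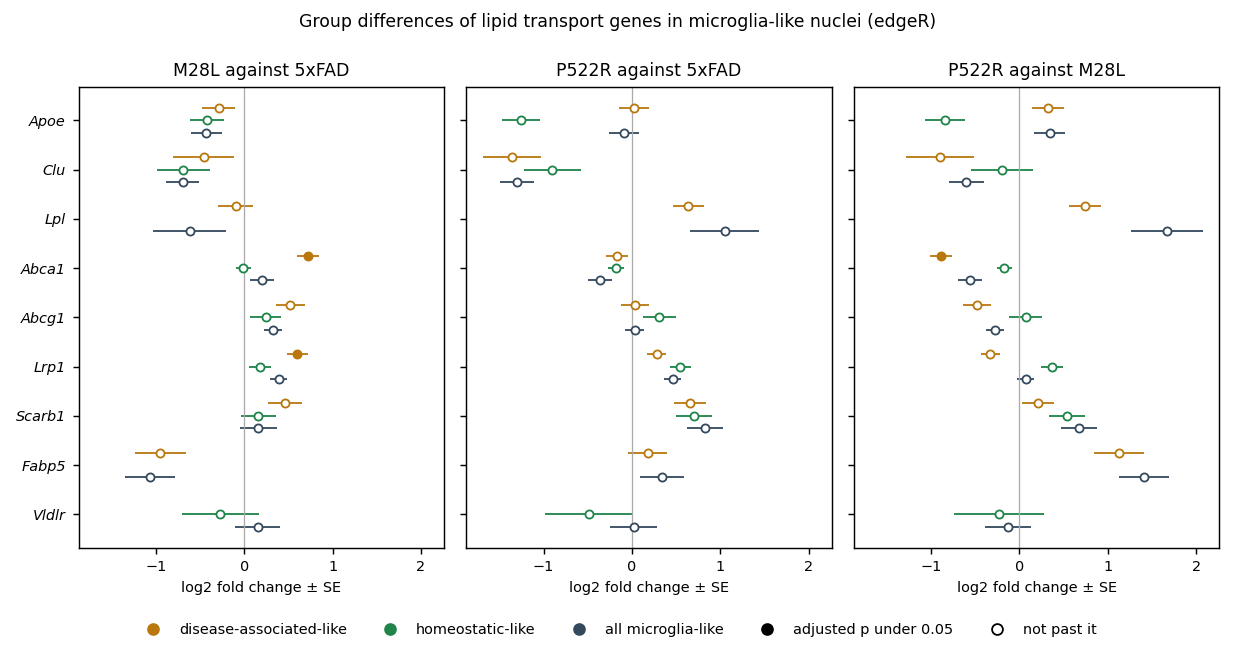
Log2 fold change ± SE (horizontal axis) of each member in the 3 contrasts, for disease-associated-like, homeostatic-like and all microglia-like nuclei, with filled points where the adjusted p was under 0.05. The filled points are Abca1 (0.72) and Lrp1 (0.60) in M28L against 5xFAD and Abca1 (-0.89) in P522R against M28L, all in the disease-associated-like state.

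In homeostatic-like microglia 0 of 7 members tested passed in any contrast, where 0.00899% of all genes passed in M28L against 5xFAD, 0.018% in P522R against 5xFAD and 0.0449% in P522R against M28L. At an unadjusted p under 0.05 there were 2, 4 and 3 members, against 5.81%, 9.01% and 5.68% of all genes, and DESeq2 called 0, 1 and 0 members. Apoe had 97.9 and 71.5 normalised CPM in M28L, 57.2 and 39.2 in P522R, and 125.9 and 99.0 in 5xFAD. The groups did not overlap, and the log2 fold change of P522R against 5xFAD was -1.26 (SE 0.216, adjusted p = 0.0832), which DESeq2 called. Astrocyte transcripts in these nuclei summed to 1750 and 1880 CPM in M28L, 1170 and 1350 CPM in P522R, and 1600 and 1750 CPM in 5xFAD, and their part was not tested. Lrp1 had 317.3 and 411.6 normalised CPM in M28L, 495.8 and 447.8 in P522R, and 341.5 and 299.9 in 5xFAD, with P522R above both other groups. Scarb1 showed P522R highest too, with 35.4 and 39.8 normalised CPM in M28L, 50.2 and 58.5 in P522R, and 32.8 and 34.9 in 5xFAD. In interferon-like microglia 0 of 6 members tested passed in each contrast (0.0% of all genes), with 3, 2 and 4 members at an unadjusted p under 0.05, against 6.94%, 5.88% and 6.37% of all genes.

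Whether a change differed between the disease-associated-like and the homeostatic-like state was tested in 1 edgeR fit over both states, a test added after the data had been seen. Among 11703 genes, 0.35% passed in M28L against 5xFAD, 0.0171% in P522R against 5xFAD and 0.41% in P522R against M28L. The difference between states passed for Abca1 in M28L against 5xFAD and in P522R against M28L, for Apoe in P522R against each other group, and for Lrp1 in P522R against M28L. For Apoe, the disease-associated-like state had 184.2 and 144.6 normalised CPM in M28L, 253.3 and 158.0 in P522R, and 218.8 and 188.5 in 5xFAD. P522R thus overlapped both other groups for Apoe in the disease-associated-like state and lay below both in the homeostatic-like one.

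The sex of nuclei changed some of these results. In disease-associated-like microglia, male-like nuclei numbered 52 and 40 in M28L, 54 and 89 in P522R, and 121 and 167 in 5xFAD. Female-like nuclei numbered 78 and 163 in M28L, 260 and 399 in P522R, and 3 and 407 in 5xFAD, so a fit of female-like nuclei alone was not possible. In male-like nuclei Abca1 had 501 and 417 CPM in M28L, 332 and 375 CPM in P522R, and 301 and 238 CPM in 5xFAD. Its rise in M28L against 5xFAD passed there, at 0.80 on the log2 scale (SE 0.186, adjusted p = 0.0258), and P522R against M28L did not, at -0.39 (adjusted p = 0.565).

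Lrp1 in male-like disease-associated-like nuclei had 430 and 339 CPM in M28L, 399 and 399 CPM in P522R, and 432 and 407 CPM in 5xFAD. The groups overlapped, and the log2 fold change of M28L against 5xFAD was -0.11 (adjusted p = 0.97). In female-like nuclei Lrp1 had 700 and 624 CPM in M28L, 553 and 429 CPM in P522R, and 339 CPM in 5xFAD replicate 3. Lpl in male-like nuclei had 49.6 and 26.1 CPM in M28L, 124 and 153 CPM in P522R, and 102 and 135 CPM in 5xFAD, with M28L below both other groups. There Lpl rose by 1.82 on the log2 scale in P522R against M28L (SE 0.384, adjusted p = 0.00731) and fell by 1.61 in M28L against 5xFAD (SE 0.37, adjusted p = 0.0256). The M28L libraries held the fewest male-like nuclei of this state, so their values rest on few counts. The shares of all genes that passed in fits of 1 sex are not given here. The difference between sexes was not tested.

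**Figure D5:**
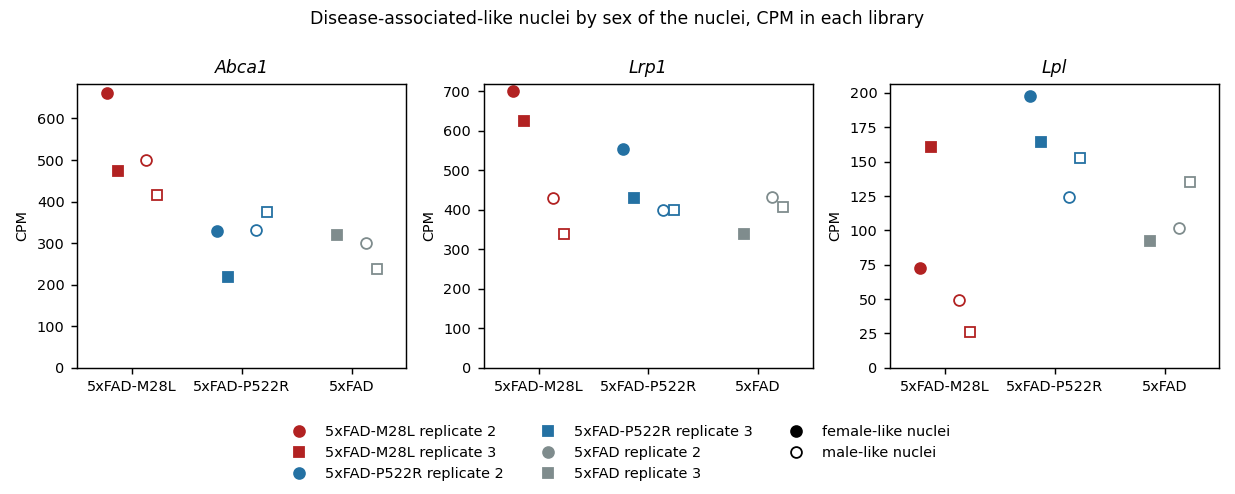
CPM of Abca1, Lrp1 and Lpl (vertical axis) in female-like (filled) and male-like (open) disease-associated-like nuclei, with 1 point per library and the 5xFAD replicate 2 female-like point left out for its 3 nuclei. Abca1 is highest in M28L in both kinds of nuclei, Lrp1 of male-like nuclei lies between 339 and 432 CPM in all groups, and Lpl of male-like nuclei is lowest in M28L.

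In homeostatic-like microglia Apoe had 117 and 66.9 CPM in female-like nuclei of M28L, 48.8 and 38.5 CPM in P522R, and 133 and 83.9 CPM in 5xFAD. It fell by 1.37 on the log2 scale in P522R against 5xFAD in those nuclei (SE 0.29, adjusted p = 0.039). Male-like nuclei had 86.4 and 70.7 CPM in M28L, 86 and 35.3 CPM in P522R, and 110 and 106 CPM in 5xFAD, and the log2 fold change was -0.96 (adjusted p = 0.807).

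Outside microglia, 0 members passed in the other 9 cell types and 3 contrasts. In oligodendrocytes 0.0%, 0.0326% and 0.0196% of all genes passed for the contrasts of M28L with 5xFAD, P522R with 5xFAD and P522R with M28L, and 3 of 9 members were at an unadjusted p under 0.05 in each, where 12.9%, 12.1% and 6.85% of all genes were. Abca1 had 195.2 and 189.9 normalised CPM in oligodendrocytes of M28L, 158.4 and 151.3 in P522R, and 133.5 and 141.3 in 5xFAD. The groups did not overlap, and the log2 fold change of M28L against 5xFAD was 0.49 (SE 0.0677, edgeR adjusted p = 0.315), which DESeq2 called. In P522R against 5xFAD DESeq2 called Clu, and in P522R against M28L Abca1, 1 member in each contrast. Vldlr had 148.9 and 132.5 normalised CPM in M28L, 160.7 and 164.3 in P522R, and 137.1 and 135.9 in 5xFAD, with P522R highest. Abcg1 had 128.7 and 129.3 in M28L, 118.3 and 117.8 in P522R, and 111.0 and 113.4 in 5xFAD, in the same order of groups as Abca1. Clu had 20.5 and 13 normalised CPM in M28L, 9.2 and 11.2 in P522R, and 23.8 and 24.7 in 5xFAD, while the 10 astrocyte transcripts summed to 2650 and 2620 CPM in M28L, 2320 and 2270 CPM in P522R, and 3010 and 2660 CPM in 5xFAD. Clu was thus low in P522R in microglia and in oligodendrocytes, and the part of astrocyte transcripts was not tested. Over all 6 libraries Clu lay between 26.4 and 33.5 CPM in oligodendrocyte precursors and between 12.5 and 16 CPM in neurons.

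In astrocytes 0.0%, 0.0217% and 0.0% of all genes passed in the same contrasts, and 2, 4 and 3 of 8 members were at an unadjusted p under 0.05, where 5.2%, 10.6% and 8.5% of all genes were. Clu in astrocytes had 280 and 283.6 normalised CPM in M28L, 297.5 and 424.3 in P522R, and 275.5 and 291.7 in 5xFAD, so that P522R was not low there. Apoe had 660.9 and 625.4 in M28L, 762.6 and 863.2 in P522R, and 793.1 and 617.0 in 5xFAD, where P522R overlapped 5xFAD. Abca1 had 393.9 and 367.7 in M28L, 346.1 and 330.6 in P522R, and 292.6 and 325.3 in 5xFAD, and Lrp1 had 240.7 and 231.2 in M28L, 221.6 and 256.8 in P522R, and 178.1 and 194.9 in 5xFAD. Both were lowest in 5xFAD, without overlap with either variant group, and neither passed. In the other 7 types the members at an unadjusted p under 0.05 numbered up to 5 of 9, in neurons for P522R against 5xFAD, where 9.95% of all genes were at that threshold. By adjusted p, 0.0244% of all genes passed in endothelial-like nuclei in each variant group against 5xFAD, and 0.054% in neurons in P522R against 5xFAD. In pericytes and smooth muscle 0.0163%, 0.114% and 0.147% passed in the same order of contrasts, and 0.0% passed in the remaining fits.

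Around the members, 96 other genes of lipid transport in 7 roles were followed, and 74 of them could be tested in microglia. In whole microglia 0 passed in each contrast. At an unadjusted p under 0.05, 4 were higher and 2 lower in M28L against 5xFAD, 5 and 7 in P522R against 5xFAD, and 6 and 6 in P522R against M28L. Of all genes tested, 6.36%, 9.44% and 8.4% were at that threshold in those contrasts. The median log2 fold change of the 74 was 0.04, 0.06 and -0.06, beside 0.00, 0.00 and -0.01 for all genes tested. Srebf2, a transcription factor of sterol synthesis, averaged 76.1 normalised CPM in P522R and 43.2 in M28L (log2 fold change 0.82, adjusted p = 0.326), and Plin2, a lipid droplet coat protein, 37.7 in P522R and 20.7 in M28L (log2 fold change 0.85, adjusted p = 0.515). Sorl1, a sorting receptor, averaged 117 in M28L and 78 in 5xFAD (log2 fold change 0.57), and 79.3 in P522R against 117 in M28L (log2 fold change -0.56, adjusted p = 0.326).

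In disease-associated-like microglia 61 of the 96 could be tested, and Stab1 is named here after its values were seen. Stab1, a scavenger receptor that also marks border macrophages, rose by 1.00 on the log2 scale in M28L against 5xFAD (mean 71.2 normalised CPM in M28L and 31.7 in 5xFAD, SE 0.225, adjusted p = 0.039). The call was lost when any library of these 2 groups was left out.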

How the data were processed

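Nuclei without NeuN were sorted from frozen cortex and run on the 10x Genomics 3' v3 chemistry, per the labels' protocols. The authors deposited raw UMI counts per gene and nucleus, 1 matrix per library. Cell Ranger 6.1.2 and mm10 are named in the submitters' processing notes, and per the file headers 5 libraries used 6.1.2 and P522R replicate 3 used 5.0.1. Whether intronic reads were counted is not given in the sources used here.

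A nucleus was kept if it had 500 UMIs and 300 genes or more and no more than 5% mitochondrial UMIs (62651 of 62687 barcodes). Scrublet's own threshold failed in 2 libraries, so the median of the other 4, 0.3109, was used for all, and 2566 doublets (3.67% to 4.68% per library) were removed. Clustering used scanpy 1.11.5 with 2000 genes, 30 components, 20 neighbours and Leiden resolution 1 (leidenalg 0.10.2), then 1000 genes, 15 components and resolution 0.5 for microglia. Clusters were named from marker lists and end in "-like". A mixed microglial sub-cluster of 547 nuclei, 337 of them from P522R replicate 3, was left out after its doublet scores were seen. The sex of a nucleus was read from sex-linked transcripts.

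UMIs summed per library and type or state, where every library had at least 20 nuclei, were tested in R 4.3.3 by edgeR 4.0.16, with TMM scaling, filterByExpr (minimum count 10) and its two-sided quasi-likelihood F-test, in 1 fit of all 6 libraries. SE is the fold change over the root of F. The statistics were tested on simulated data. Intervals and floors cover counting error only, a floor being 3 counts. Alternatives were a replicate block, no filter on low counts, DESeq2 1.42.0, RLE size factors, fits of 4 libraries, 1000 UMIs per nucleus, doublets kept, members allowed in clustering, higher resolution, 1 sex only and each library left out. The mixed sub-cluster kept and the fit across states with its alternatives were added after seeing the data.

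The 9 members, the marker lists and the 96 other genes were chosen with earlier results of these data known. The members are always named. Of the 96, the rule named up to 2 genes per role and contrast in microglia by unadjusted p. It also named up to 4 per contrast that passed in a cell type. Some of these are printed, and others had larger fold changes at low levels. An example is Abcb1a, at -1.77 on the log2 scale in P522R against 5xFAD in microglia (means of 1.07 and 3.54 normalised CPM). For likeness the rule named 3 genes per member, among genes with at least 20 CPM in a type. Of the 96, 1 gene that the rule names is not reported here.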

Additional observations from a re-analysis of the deposited data

Results flagged for a closer look

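These results stood out because a change between groups differed between the disease-associated-like and the homeostatic-like state by a test of that difference (edgeR's quasi-likelihood test over both states, Benjamini-Hochberg over 11703 genes). The difference is the log2 fold change in the disease-associated-like state minus that in the homeostatic-like state.

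For Abca1, the cholesterol exporter, it was 0.71 in M28L against 5xFAD (SE 0.134, adjusted p = 0.00248) and -0.73 in P522R against M28L (SE 0.133, adjusted p = 0.00189). M28L kept a high level of Abca1 in the disease-associated-like state. Homeostatic markers in that state were also highest in M28L, and their part was not tested. For Apoe it was 1.19 in P522R against 5xFAD (SE 0.199, adjusted p = 0.00288) and 1.11 in P522R against M28L (SE 0.21, adjusted p = 0.00279). Apoe was lower in P522R in the homeostatic-like state and overlapped the other groups in the disease-associated-like one. For Lrp1 it was -0.7 in P522R against M28L (SE 0.134, adjusted p = 0.00279), and 0.38 in M28L against 5xFAD did not pass (adjusted p = 0.379).

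Leaving out 1 library ended some of these calls. Abca1 in M28L against 5xFAD passed in 4 of 6 such fits and was lost without M28L replicate 2 or 5xFAD replicate 3 (highest adjusted p = 0.211). Abca1 in P522R against M28L passed in 4 of 6 and was lost without M28L replicate 2 or P522R replicate 3 (highest 0.192), as was Lrp1 in that contrast (highest 0.244). Apoe was lost in P522R against 5xFAD without 5xFAD replicate 2 (adjusted p = 0.108) and in P522R against M28L without M28L replicate 2 (adjusted p = 0.113). In male-like nuclei alone none of these differences passed, with 0.76 and -0.31 for Abca1, 1.20 and 1.38 for Apoe and -0.57 for Lrp1 in the same contrasts. The states of 1 library share their nuclei's source, and the fit held library as a factor, with 1 sum per state and library.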

How the results depend on the processing

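With 2 libraries per group, counts of calls moved with the settings, and the cause was not tested. The shares of all genes that passed under the alternative settings are not given here. Counts of calls under those settings are therefore not read as results about the members. Of 730 alternative values of the main results 641 kept to the main value and 89 moved. Of 1259 values of single genes 1147 kept their direction and side of the threshold, 16 fell below it, 91 passed it and 5 changed sign. RLE size factors, the 1000-UMI minimum, members allowed in clustering and the mixed sub-cluster kept moved no count of called members. The first cell type of a member was the same for 9 of 9 under 10 of the 11 alternatives, and for 8 by share of thinned nuclei.

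Without the filter on low counts, calls for M28L with 5xFAD, P522R with 5xFAD and P522R with M28L (main values 0) were 3, 5 and 4 members in microglia and 2, 1 and 1 in oligodendrocytes. Neurons had 2 in P522R against 5xFAD, and homeostatic-like nuclei 2 in P522R against 5xFAD and 1 in P522R against M28L. Disease-associated-like nuclei had 3 in P522R against 5xFAD and 3 in P522R against M28L, unnamed-state nuclei 2 in each of those contrasts, and interferon-like nuclei 1 in M28L against 5xFAD and 1 in P522R against M28L. With DESeq2 there was 1 call in P522R against 5xFAD in microglia and in homeostatic-like nuclei, 1 in each contrast in oligodendrocytes, and 0 in M28L against 5xFAD in the unnamed state, for 1 in the main fit. In the disease-associated-like state DESeq2 gave 0 calls of the wider list in M28L against 5xFAD, for 2 in the main fit, and it gave no adjusted p for Stab1. With doublets kept, interferon-like nuclei had 1 in M28L against 5xFAD and 1 in P522R against M28L, and homeostatic-like nuclei 1 in P522R against 5xFAD. With female-like nuclei alone, homeostatic-like nuclei had 1 in P522R against 5xFAD. At higher resolution, unnamed-state nuclei had 0, 1 and 0 over the 3 contrasts and interferon-like nuclei 1 in M28L against 5xFAD and 1 in P522R against M28L. In fits of the 4 libraries compared, microglia had 4 in P522R against M28L and the unnamed state 0 in M28L against 5xFAD.

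With male-like nuclei alone, microglia had 1 in M28L against 5xFAD and 1 in P522R against M28L, the unnamed state 0 in both, and the fit across states 0, 0 and 0, for 1, 1 and 3 in the main fit. In those nuclei the sign changed for Lrp1 in microglia (-0.10) and Abcg1 in microglia (-0.07) in M28L against 5xFAD. It also changed for Lrp1 in the disease-associated-like state, at -0.11 in M28L against 5xFAD, -0.08 in P522R against 5xFAD and 0.02 in P522R against M28L, none of which passed.

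Leaving out each library in turn gave 0 to 1, 0 to 5 and 0 to 4 members over the 3 contrasts in microglia, 0 to 1, 0 to 2 and 0 to 1 in the unnamed state, 0 to 2 in M28L against 5xFAD and 1 to 2 in P522R against M28L in the disease-associated-like state, 0 to 1 in P522R against 5xFAD in the homeostatic-like state, and 0 to 1 in M28L against 5xFAD and in P522R against M28L in the interferon-like state. The wider list gave 0 to 3, 0 to 8 and 0 to 7 in microglia, and 0 to 3 in M28L against 5xFAD and 0 to 1 in P522R against M28L in the disease-associated-like state. The fit across states gave 0 to 1, 0 to 1 and 0 to 3. In whole microglia these moves came without 5xFAD replicate 2 (1 member in M28L against 5xFAD, 4 in P522R against M28L) and without 5xFAD replicate 3 (5 in P522R against 5xFAD, 4 in P522R against M28L). Where 1 library of a group was left, it was assumed to vary like the other groups. Shares of all genes that passed in these refits are not given here, so the counts are not read as results about the members.

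Replicate numbers are shared by the groups, but there are only 2 and the labels do not say what they mark. Deviations of same-numbered libraries, for the 3 pairs of groups, correlated at 0.33, 0.16 and 0.2 in microglia, 0.48, 0.45 and 0.38 in oligodendrocytes, 0.4, 0.36 and 0.27 in oligodendrocyte precursors, and 0.1, 0.04 and 0.08 in the disease-associated-like state. The lowest over all types was -0.07, in committed precursors. With 2 numbers and no label for them, they were not taken as pairs, although libraries of 1 number deviated together in the first 3 of those types. With a replicate block, calls were 2 in P522R against 5xFAD and 3 in P522R against M28L in microglia, 1 in each contrast in oligodendrocytes, and 1 in P522R against 5xFAD in oligodendrocyte precursors. In homeostatic-like and in unnamed-state nuclei they were 2 in P522R against 5xFAD and 2 in P522R against M28L, and in disease-associated-like nuclei 3 in P522R against M28L. With the block the wider list had 2 in P522R against M28L in microglia and 2 in the disease-associated-like state.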
